A study of Bos taurus with 17 samples.

Results

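In the cow, 63 of the 21475 probes of the bovine array were detected in compact cumulus and lost in expanded cumulus. The members were chosen by detection, which an array gave to a probe if 50% or more of its spots carried the scanner software's mark for a signal well above background. They were detected on all 12 arrays of compact cumulus and on at most 1 of the 5 arrays of expanded cumulus. They were 0.293% of all probes and 0.465% of the 13547 probes detected on all 12 compact arrays. Of the latter probes, 13120 were also detected on all 5 arrays of expanded cumulus. The reverse pattern, detection on all 5 expanded arrays and on at most 1 compact array, was found for 44 probes. As these values chose the members, their difference between compact and expanded cumulus is described here and was not tested.

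Cumulus cells are the follicular cells that enclose the oocyte and exchange small molecules with it through gap junctions. Until the gonadotropin surge, they form a compact, proliferating layer. After the surge, they secrete a hyaluronan-rich matrix, expand, and lose contact with the oocyte, which resumes meiosis and reaches metaphase II.

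Cells of 3 stages were sampled, with 1 array per animal, as described in the study's methods. The age of the C2 cows is taken from the sample labels. NC1 (Calf_Imm) cells came from 6 prepubertal calves aged 3 to 6 months, and C1 (Cow_Imm) cells from 6 adult cows. Both were aspirated after slaughter from follicles of 3 to 6 mm, with a compact cumulus around an immature oocyte. C2 (Cow_Mat_Vivo) cells came from 5 cycling, non-lactating Holstein cows aged 3 to 5 years, treated with progestagen implants, porcine FSH/LH and prostaglandin F2α. They were collected by ovum pick-up 60 h after prostaglandin from follicles above 8 mm, with an expanded cumulus around a metaphase II oocyte. Age therefore cannot be told apart from the change between NC1 and C1. The size of the follicles, the hormones given and ovum pick-up in place of slaughter cannot be told apart from the change between C1 and C2. The same holds for age, breed and lactation, as the methods describe the C1 cows only as adult.

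Levels are given as log2 scaled signal, in which 0 is the median probe of the array, and they compare a probe between arrays, not a probe with another. The labels name the tissue as ovarian follicles. Of 19 cumulus and granulosa marker genes, 17 were detected on all 17 arrays. Between 66.2% and 82.8% of the probes of an array were detected, and C2 replicate 5 had the highest share among the C2 arrays (81.3%). The arrays lay on 6 slides, scanned on 2 days, and each slide held 1 NC1 and 1 C1 array while 5 of them also held a C2 array. As bulk RNA was measured, fewer cells of a type and less RNA per cell cannot be told apart.

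The members carried 52 distinct gene names on 54 probes, and 9 probes had no gene name. No C2 array detected 27 of the members, and 1 C2 array detected the other 36. This array was C2 replicate 5 for 18 members, replicate 3 for 6, and replicates 1, 2 and 4 for 4 each. For 57 members, all 5 C2 arrays lay below all 12 compact arrays. The exceptions were SLC47A1, CCDC162P, IFIH1 and 3 probes without a gene name. Within slides, the C2 array lay below both compact arrays on all 5 slides for 62 members, SLC47A1 being the exception. The rule that chose the members favours both counts, and the shares over all probes were not computed, so the counts only describe the members. The median difference of C2 from the compact arrays was -3.52, with a range from -7.86 to -1.70. Over all 13120 probes detected on every array, the median difference was 0.07, and 97 of these probes had a difference of -3.52 or lower.

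**Figure D1:**
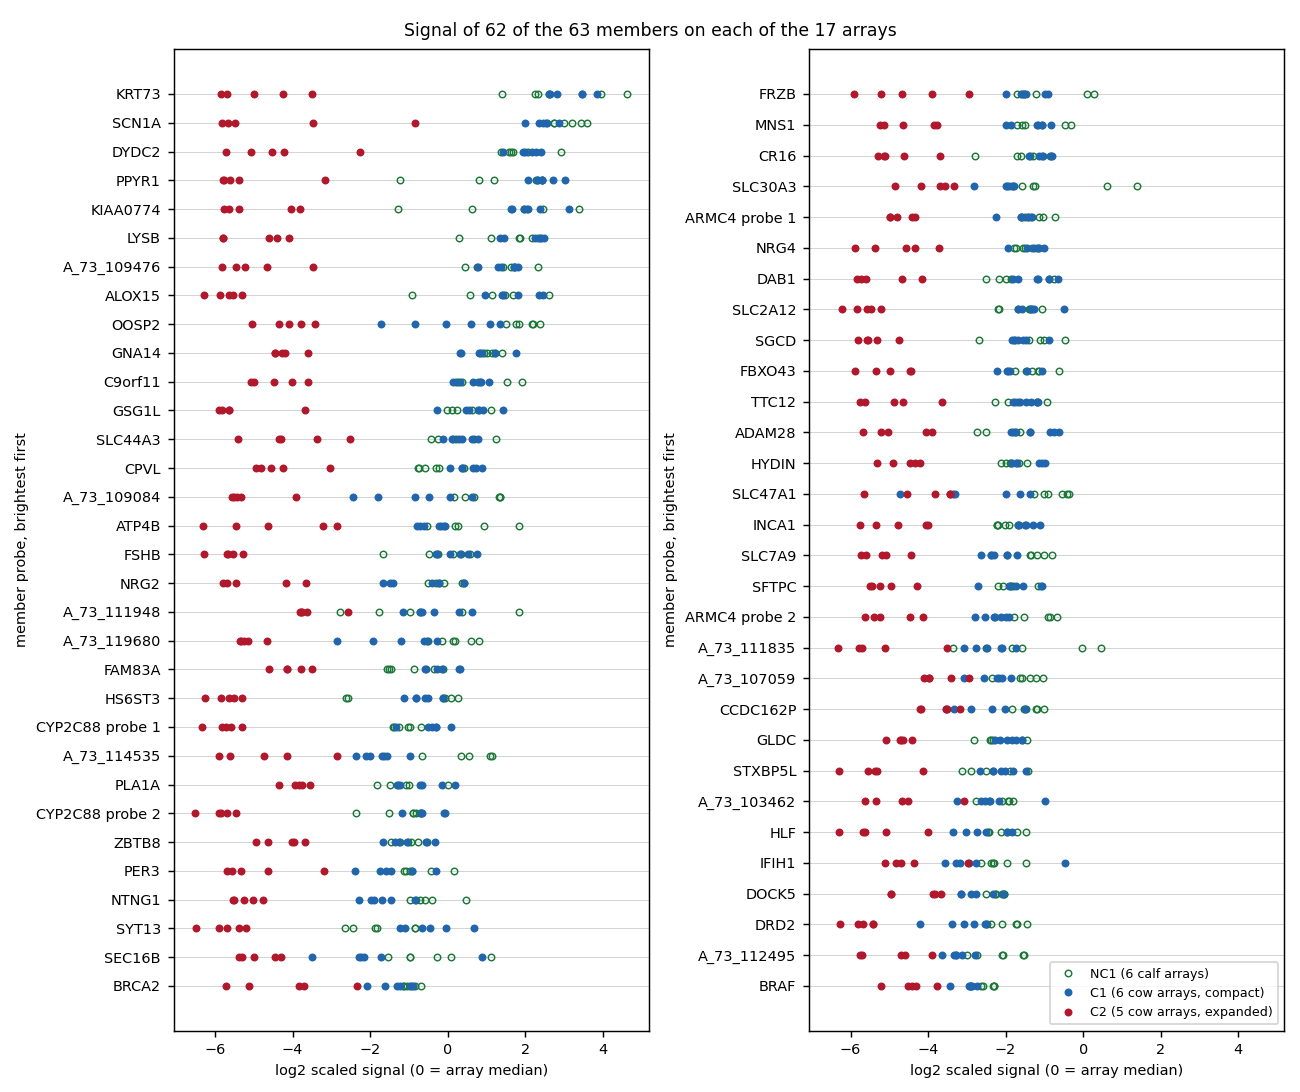
Log2 scaled signal (x axis) of 62 of the 63 members (rows, brightest first) on each of the 17 arrays. Each point is 1 array, open green for NC1, blue for C1 and red for C2. Red points reach green or blue ones for SLC47A1, CCDC162P, IFIH1 and 3 probes without a gene name, and for no other row.

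A level that is not well above background gives only a bound. The change of each member was therefore given as at least N-fold, from the compact mean over a C2 mean in which each array was set at its lowest signal well above background, or at the member's own signal where that was higher. The median bound was at least 11.1-fold against C1 (range 2.17 to 256) and at least 13.7-fold against NC1 (range 3.81 to 211). Both bounds reached 4-fold for 55 members and 16-fold for 21 members. For 58 members, all C2 signals were above this lowest signal, so that the bound was the ratio of the means. The C2 signals in it were mostly not well above background. The words at least therefore hold only in this setting, here and for the single members below. The median bound against C1 was 3.53-fold when it was set at the 5th percentile of the signals well above background, where 50 members reached 2-fold, and 1.64-fold after a normexp background correction with an offset of 50, which compresses dim signals, where 24 members did.

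Loss of detection was not absence of signal. Under a softer mark of the scanner software, a signal that is positive and significant against the background of its spot, all 63 members were detected on all 12 compact arrays. However, 26 of them were then also detected on all 5 C2 arrays, and 55 on 2 or more. The 8 members that still met the rule were ALOX15, FSHB, HS6ST3, both probes of CYP2C88, SLC2A12, PPYR1 and SYT13. For ALOX15, FSHB, HS6ST3, SLC2A12 and 1 of the probes of CYP2C88, no C2 array had a signal that was positive and significant.

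Most of the members were dim before the loss. Their mean level over the 12 compact arrays had a median of -1.16, against 2.76 for all probes detected on these arrays. The dimmest 10% of these probes held 36 members, which was 2.66% of the probes in this range. The next 15% held 15 members, the following 25% held 10, and the brighter 50% held only KRT73 and SCN1A. In intensity units, the geometric mean of a member over the compact arrays ran from 21.2 for BRAF to 1135 for KRT73, with a median of 63.3. At C2 the median was 4.61, while the median background of the arrays lay between 20 and 24 units before subtraction. Brightness orders the probes by signal and is no order of transcript amounts.

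**Figure D2:**
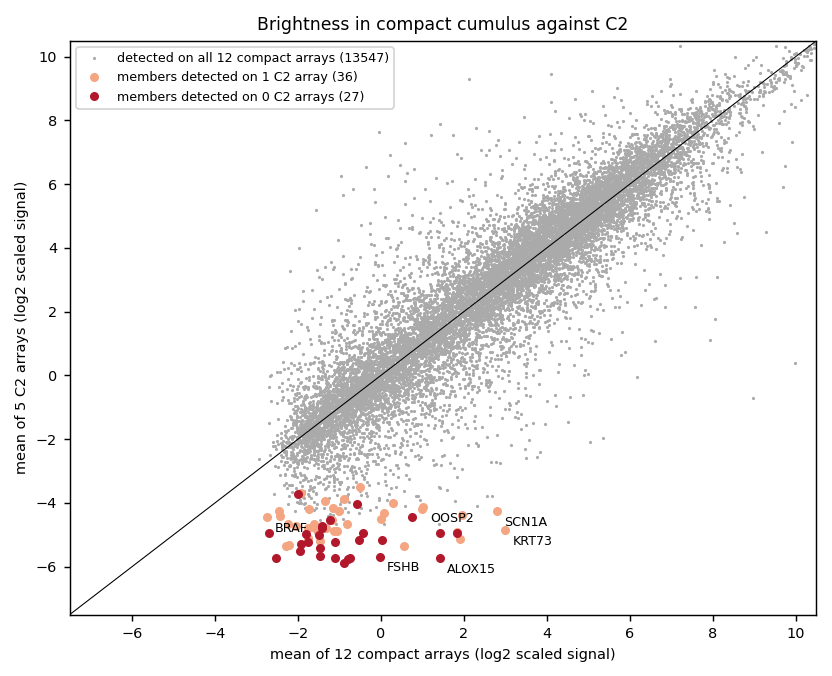
Mean log2 scaled signal over the 5 C2 arrays (y axis) against the mean over the 12 compact arrays (x axis) for the 13547 probes detected on all compact arrays (grey). Members are red (27 detected on 0 C2 arrays) or orange (36 detected on 1), and the line marks equal levels. The members lie at the bottom, with KRT73 at 3.00 and BRAF at -2.74 on the x axis.

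The brightest member was KRT73, a type II keratin known from the inner root sheath of hair. Its level ranged from 1.41 to 4.63 with a median of 2.47 at NC1, and from 2.61 to 3.84 with a median of 3.14 at C1. The 5 C2 arrays read -5.84, -5.69, -4.25, -5.00 and -3.50 in the order of their replicate numbers. All C2 arrays were below all compact arrays. The bound was at least 256-fold against C1 and 211-fold against NC1, the largest of all members in this setting, and here it was the ratio of the means.

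SCN1A, a voltage-gated sodium channel of neurons, was the next brightest member. It ranged from 2.74 to 3.59 at NC1 and from 1.98 to 2.87 at C1. The C2 arrays read -5.68, -0.85, -3.47, -5.47 and -5.82. Replicate 2, the only C2 array that detected it, stood apart from the others, and the bound was at least 105-fold against C1 and 167-fold against NC1.

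Hormones, receptors and signalling proteins made up 11 members. PPYR1, a receptor of pancreatic polypeptide, ranged from -1.24 to 2.44 at NC1 with a median of 1.74, and from 2.08 to 3.03 at C1. At C2 it read -5.80, -5.77, -5.37, -5.61 and -3.15, and the bound was at least 199-fold against C1 and 87.3-fold against NC1. The calf arrays thus spread over a wider range than the cow arrays, and a C2 array, replicate 5, was again the highest of its stage. GNA14, a G protein alpha subunit that couples receptors to phospholipase C, ranged from 0.82 to 1.40 at NC1 and from 0.31 to 1.76 at C1. Its C2 arrays read -4.20, -3.59, -4.28, -4.45 and -4.45, and its bound was at least 34.0-fold against C1.

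FSHB encodes the beta subunit of follicle-stimulating hormone, which is known as a pituitary product. Its probe ranged from -1.68 to 0.59 at NC1 and from -0.30 to 0.76 at C1. At C2 it read -5.70, -5.66, -5.29, -5.55 and -6.28, and the bound was at least 58.7-fold against C1 and 44.3-fold against NC1. The C2 arrays lay below all compact arrays, and no C2 signal was positive and significant. The match of the probes of FSHB, KRT73, SFTPC and the other members to their genes was not examined, so a level is that of the probe. The FSH receptor, FSHR, was detected on all 17 arrays. Its NC1 mean was 5.12 ± 0.44 (SD, n = 6), its C1 mean 5.60 ± 0.21 (SD, n = 6) and its C2 mean 2.05 ± 0.47 (SD, n = 5).

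NRG2 and NRG4 are neuregulins, ligands of the ErbB receptor kinases, and no C2 array detected them. NRG2 ranged from -0.52 to 0.43 at NC1 and from -1.66 to 0.43 at C1, and read -5.70, -4.17, -3.65, -5.45 and -5.79 at C2, with a bound of at least 17.9-fold against C1. NRG4 had a mean of -1.51 at NC1, -1.34 at C1 and -4.78 at C2, with a bound of at least 10.8-fold. FRZB, a secreted antagonist of Wnt ligands, was detected at C2 on replicate 4 only, and had a mean of -0.95 at NC1, -1.42 at C1 and -4.53 at C2. Of the 42 genes of a Wnt pathway list on the array, 27 were detected on all 12 compact arrays and 24 on all 17, and FRZB was the only member among them. The remaining signalling members were NTNG1, a netrin of axon guidance, DAB1, the adaptor of reelin signalling, DRD2, a dopamine receptor, DOCK5, an exchange factor of Rac, and BRAF, a kinase of the MAP kinase cascade. Their compact means lay between -2.74 and -1.10.

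Channels and transporters made up 9 members, SCN1A among them, with bounds from 2.71-fold to 105-fold against C1. Among solute carriers, SLC44A3, a choline transporter-like protein, was the brightest. It ranged from -0.42 to 1.24 at NC1 and from -0.12 to 0.78 at C1, and read -4.30, -2.52, -3.38, -4.34 and -5.41 at C2. SLC2A12, a glucose transporter, was dimmer, with a mean of -1.65 at NC1 and -1.28 at C1, and no C2 array detected it (-5.66). Its bound was at least 20.9-fold against C1. SLC30A3, a zinc transporter of synaptic vesicles, SLC7A9, the cystine transporter of kidney tubules, and SLC47A1, an exporter of organic cations, had bounds of at least 3.69-fold, 7.92-fold and 2.71-fold against C1. ATP4B, the beta subunit of the gastric proton pump, ranged from -0.54 to 1.85 at NC1 and from -0.79 to -0.07 at C1, and read -4.62, -5.45, -3.22, -2.86 and -6.31 at C2. It had a bound of at least 16.8-fold against C1 and 30.2-fold against NC1. Of the 61 genes of a list of kidney-type and epithelial transporters on the array, 40 were detected on all 12 compact arrays and 34 on all 17, and 3 held members, SLC2A12, SLC30A3 and SLC47A1.

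Enzymes made up 9 probes of 8 genes, with a median bound of 33.1-fold against C1, against 11.1-fold over all members. LYSB, a lysozyme, ranged from 0.30 to 2.33 at NC1 and from 1.35 to 2.49 at C1, and read -5.79, -4.62, -4.10, -4.40 and -5.79 at C2. ALOX15, a lipoxygenase that oxidises arachidonic acid and is known from reticulocytes and leukocytes, ranged from -0.93 to 2.62 at NC1 and from 0.96 to 2.45 at C1. At C2 it read -5.88, -5.64, -5.29, -5.54 and -6.29, with a bound in this setting of 177-fold against C1 and 113-fold against NC1, the ratio of the means. No C2 signal was positive and significant, and the C2 readings lay close to those of FSHB and HS6ST3 on the same arrays. The ratio is thus to the floor of these arrays. The summed level of 8 red blood cell markers, mostly that of an alpha globin probe, lay between 28.8 and 131 at NC1, between 73.6 and 259 at C1 and between 3.73 and 52.1 at C2. GATA1 was detected on no array, and the leukocyte list ranged from 32.4 to 59.1 at NC1, from 27.6 to 50.7 at C1 and from 28.8 to 99.5 at C2. The part of these cells in the level of ALOX15 was not tested. HS6ST3, which sulphates heparan chains, ranged from -2.61 to 0.26 at NC1 and from -1.14 to -0.13 at C1, and read -5.84, -5.65, -5.31, -5.52 and -6.26 at C2, a bound of at least 33.1-fold against C1. CPVL, a carboxypeptidase, ranged from -0.76 to 0.43 at NC1 and from 0.05 to 0.88 at C1, and read -4.94, -4.25, -4.82, -4.55 and -3.04 at C2, a bound of at least 28.3-fold. No C2 array of either gene reached a compact array. PLA1A, a phospholipase of phosphatidylserine, ADAM28, a membrane metalloprotease, and GLDC, the decarboxylase of the glycine cleavage system, had bounds between 6.92-fold and 11.9-fold against C1.

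CYP2C88, a cytochrome P450 of the family that oxidises drugs and arachidonic acid, was lost on both of its probes. The probes, of 60 bases each, are shown because they have no stretch of sequence in common beyond 5 bases, which are in capitals, so the gene was read by unrelated oligonucleotides.
CYP2C88 probe 1: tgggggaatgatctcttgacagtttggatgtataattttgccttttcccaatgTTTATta
CYP2C88 probe 2: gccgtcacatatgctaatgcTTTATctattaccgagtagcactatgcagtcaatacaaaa
Probe 1 ranged from -1.41 to -0.70 at NC1 and from -1.32 to 0.09 at C1, and read -5.83, -5.71, -5.30, -5.59 and -6.34 at C2. Probe 2 ranged from -2.36 to -0.73 at NC1 and from -1.17 to -0.07 at C1, and read -5.89, -5.85, -5.45, -5.68 and -6.51 at C2. The bounds were at least 39.2-fold and 39.0-fold against C1 and at least 24.7-fold and 25.0-fold against NC1. A probe of a given gene may also bind the messenger of a close P450 relative, and which relatives these probes would match was not examined.

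Proteins of the motile cilium and of sperm flagella made up 5 probes of 4 genes, a group recognised after the members were known. ARMC4, which docks the outer dynein arms on the axoneme, was lost on both of its probes, with a shared stretch of 6 bases in capitals.
ARMC4 probe 1: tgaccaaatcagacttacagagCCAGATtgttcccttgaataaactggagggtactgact
ARMC4 probe 2: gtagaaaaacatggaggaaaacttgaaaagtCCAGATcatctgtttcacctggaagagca
Probe 1 ranged from -1.58 to -0.74 at NC1 and from -2.25 to -1.32 at C1, and read -4.99, -4.80, -4.35, -5.00 and -4.42 at C2. Probe 2 ranged from -2.27 to -0.68 at NC1 and from -2.79 to -1.92 at C1, and read -5.39, -4.12, -4.47, -5.24 and -5.62 at C2. The probes carried different locus names in the array design, and both match the current symbol ODAD2. MNS1, a protein inside the microtubules of the axoneme, HYDIN, a component of its central pair, and TTC12, which serves dynein arm assembly, had compact means of -1.23, -1.62 and -1.53. Their C2 means were -4.53, -4.65 and -4.90, and no C2 value of these 3 genes reached a compact one. The bounds of the 5 probes ran from 6.47-fold to 10.4-fold against C1. In a list of motile cilium genes, written after the members were seen, 91 were on the array, 43 were detected on all 12 compact arrays and 32 on all 17.

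Germ cell proteins made up 4 members. OOSP2, an oocyte-secreted protein, was the brightest, and ranged from 1.51 to 2.38 at NC1 and from -1.73 to 1.34 at C1. At C2 it read -3.41, -3.79, -5.04, -4.08 and -4.34, so that the stages did not overlap. The bound was at least 18.5-fold against C1 and 68.9-fold against NC1. C9orf11, the sperm acrosome protein equatorin, ranged from 0.20 to 1.93 at NC1 and from 0.15 to 1.06 at C1, and read -5.06, -3.61, -5.01, -4.03 and -4.48 at C2, with a bound of at least 33.9-fold against C1. FBXO43, an inhibitor of the anaphase-promoting complex that holds oocytes at metaphase II, had means of -1.25, -1.75 and -5.02. BRCA2, which serves recombination repair of DNA in dividing and germ cells, had means of -0.97, -1.35 and -4.14.

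The level of oocyte markers moved with these stages. The summed scaled signal of 14 oocyte marker probes lay between 62.5 and 149 at NC1, between 5.64 and 56.7 at C1, and between 3.75 and 8.17 at C2. Of the 14 probes, 11 to 13 were detected on a calf array, 5 to 14 on a C1 array and 4 to 6 on a C2 array. C1 replicates 3 and 6 had the lowest sums among the compact arrays, 7.15 and 5.64, and also the lowest levels of OOSP2, -1.73 and -0.84. The other germ cell members, C9orf11, FBXO43 and BRCA2, had their lowest C1 levels on other replicates. On replicate 6 they were above their C1 means, while on replicate 3 only BRCA2 was. Of them, C9orf11 is a sperm protein and BRCA2 also serves dividing cells, so neither is particular to the oocyte. The zona pellucida gene ZP2, a defining oocyte marker, was detected on no C2 array, and GDF9 and ZP3 were detected on all 17 arrays. The part of oocyte RNA in the levels of the members was not tested. None of the 14 probes was a member, and 9 of them were not detected on C1 replicate 3 or 6. Without these 2 arrays the rule found 89 probes. The 63 members are among them by construction, as leaving out compact arrays only loosens the rule.

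**Figure D3:**
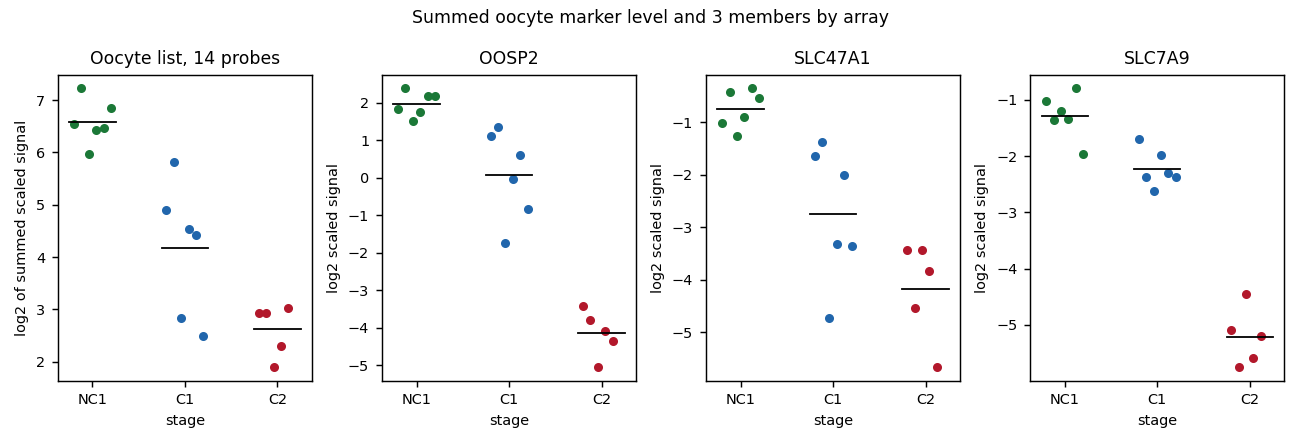
Log2 of the summed scaled signal of 14 oocyte marker probes, and log2 scaled signal of OOSP2, SLC47A1 and SLC7A9, by stage. Each point is 1 array and each line the stage mean. OOSP2 lies between 1.51 and 2.38 on all NC1 arrays, and the lowest C1 array is at -1.73.

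The transcription, clock and cell cycle group held 4 members. PER3, a period protein of the circadian clock, had a mean of -0.73 at NC1, -1.40 at C1 and -4.88 at C2. HLF, a transcription factor of the PAR bZIP family, had means of -2.02, -2.57 and -5.34. ZBTB8, a zinc finger protein, and INCA1, an inhibitor of cyclin-dependent kinase, had bounds of at least 9.24-fold and 10.1-fold against C1. No member was found among the 75 genes of a cell division list, of which 69 were detected on all 12 compact arrays and 57 on all 17. Of 58 DNA replication and repair genes on the array, 50 were detected on all 12 compact arrays, 47 on all 17, and BRCA2 was the member.

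Structural, trafficking and other proteins made up 12 members. KRT73 was followed in brightness by DYDC2, which carries a DPY30 domain, and KIAA0774, also known as the microtubule-associated protein MTUS2. DYDC2 ranged from 1.38 to 2.91 at NC1 and from 1.42 to 2.42 at C1, and read -5.08, -5.71, -2.26, -4.21 and -4.54 at C2. KIAA0774 ranged from -1.28 to 3.38 at NC1 and from 1.63 to 3.12 at C1, and read -4.04, -5.77, -5.37, -5.63 and -3.81 at C2. The bounds against C1 were at least 84.3-fold and 134-fold. SYT13, a synaptotagmin, and STXBP5L, a tomosyn that binds SNARE proteins, had bounds of at least 37.8-fold and 9.57-fold. SEC16B, a protein of endoplasmic reticulum exit sites, had the widest spread of the members at C1, from -3.49 to 0.89. FAM83A ranged from -1.56 to -0.12 at NC1 and from -0.60 to 0.33 at C1, and read -4.14, -3.51, -4.61, -3.79 and -4.14 at C2, with a bound of at least 14.7-fold against C1. SGCD, a sarcoglycan, SFTPC, a surfactant protein of the lung, CR16, which binds an SH3 domain, and CCDC162P complete the group, together with IFIH1, a sensor of viral RNA. IFIH1 ranged from -3.56 to -0.46 at C1, where replicate 1 stood above the others, and it read -5.11, -4.36, -2.98, -4.82 and -4.70 at C2, so that the stages overlapped.

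Of the 9 probes without a gene name, the brightest was A_73_109476, with a mean of 1.39 at NC1, 1.45 at C1 and -4.93 at C2, and a bound of at least 83.0-fold against C1. The array design places 2 others close together on bovine chromosome 4, A_73_119680 at 50905973 to 50906948 and A_73_109084 at 50911267 to 50912215, in a genome build it does not name. They are 4318 bases apart, and their probes share at most 6 bases. A_73_109084 ranged from 0.16 to 1.35 at NC1 and from -2.45 to 0.63 at C1, and A_73_119680 from -0.50 to 0.81 and from -2.87 to -0.28. No C2 array detected either, with means of -5.15 for both. The highest C2 array was -3.92 for the first and -4.67 for the second, below all compact arrays.

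A lost probe was not always a lost gene. The array held 1 probe for 41 of the named genes, and only member probes for CYP2C88 and ARMC4. For the other 9 genes it held 10 further probes, of which 5 were detected on all 17 arrays. GSG1L, an auxiliary subunit of AMPA receptors, is shown as an example, with the stretch of 7 bases shared by its probes in capitals.
GSG1L member: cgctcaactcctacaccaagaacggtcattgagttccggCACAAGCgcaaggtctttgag
GSG1L other probe: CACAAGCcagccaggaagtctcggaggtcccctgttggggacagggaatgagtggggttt
The member ranged from -0.01 to 1.11 at NC1 and from -0.29 to 1.42 at C1, and read -5.90, -5.83, -3.68, -5.65 and -5.63 at C2. The other probe had an NC1 mean of 3.68 ± 0.33 (SD, n = 6), a C1 mean of 3.86 ± 0.39 (SD, n = 6) and a C2 mean of -2.55 ± 0.31 (SD, n = 5). It was thus 79.9-fold lower at C2 than in the compact arrays and still detected on each C2 array. The other probe of ALOX15 was 5.25-fold lower at C2 (-1.59 ± 0.83, SD, n = 5), that of BRCA2 5.79-fold lower, that of HLF 4.83-fold lower and that of BRAF 1.75-fold lower. These probes were lower at C2 too, and above the detection limit on every array. For SGCD the other probe was detected on 2 C2 arrays. For SYT13, CCDC162P and HLF, a further probe was detected on 1 compact array and no C2 array, and that of STXBP5L on 8 compact arrays and no C2 array.

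**Figure D4:**
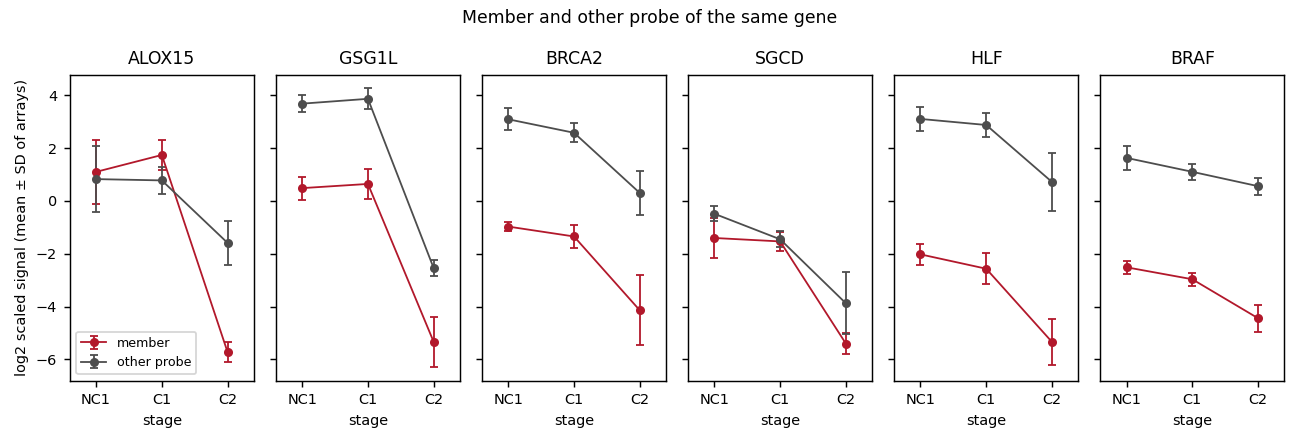
Mean log2 scaled signal with SD (bars) at NC1 (6 arrays), C1 (6) and C2 (5) for the member (red) and another probe of the same gene (grey) that all compact arrays detected. In the 6 genes both probes are lower at C2, and the grey probe of GSG1L is at 3.86 at C1 and at -2.55 at C2.

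The probes of the members had a median GC content of 41.7%, from 21.7% to 55.0%, against a median of 43.3% for all probes detected on the compact arrays. Among the 1953 pairs of members, the longest stretch of bases in common was 12.

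The rule used no difference between cow and calf, so C1 against NC1 could be tested among the members. It did require detection on all 12 compact arrays, so a probe that fell to background in 1 group could not be a member. The members also varied more between arrays. Their median SD was 0.53 at NC1 and 0.44 at C1, against 0.33 at each stage for all probes detected on the 12 compact arrays. None of the 63 passed an adjusted p of 0.01 in limma over the 14249 probes tested, of which 84 (0.59%) passed, 10 (0.0702%) higher and 74 (0.519%) lower at C1. In an unadjusted test, however, 32 members (50.8%) had a p under 0.05, against 16.4% of all probes tested. Of these, 21 were lower at C1, where 8.06% of all probes were, and 11 were higher, where 8.3% of all probes were. The shares among probes as dim as the members were not computed, so brightness was not separated from membership. The count of members with an unadjusted p under 0.05 lay between 24 and 36 over the 24 alternative settings. The count over all probes moved too, from 2331 of 14249 in the main setting. It was 1440 with all 17 arrays in 1 fit and 3822 with normexp, each with 24 members. With no filter it was 5403 of 21475, with 29 members. In the main setting, the median difference of C1 from NC1 was -0.13 in the members, against 0.05 for all probes tested. Within each scan day, 46 of the 63 members kept the direction of the whole, including all 32 counted above. The share over all probes was not computed. The difference of the whole is built from both days, which favours such agreement. The 32 were chosen on these same arrays, so their agreement was largely fixed by the choice. Calf and cow values did not overlap in 3 members, OOSP2, SLC47A1 and DRD2, as in 2.2% of all probes tested. The p-values measure the spread between arrays, each from 1 animal.

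The members with the largest differences were lower in cows. SLC47A1 ranged from -1.26 to -0.36 at NC1 and from -4.72 to -1.38 at C1, a difference of -1.99 ± 0.45 (SE), with an adjusted p of 0.0280 in limma. The lowest C1 array, replicate 3, lay within the range of the C2 arrays, and the other C1 arrays lay above it. OOSP2 differed by -1.90 ± 0.42 (SE), with an adjusted p of 0.0245 in limma, and the unnamed A_73_114535 by -1.92 ± 0.41 (SE), with an adjusted p of 0.0209 in limma. SLC7A9 differed by -0.94 ± 0.21 (SE) and NTNG1 by -1.18 ± 0.27 (SE), with adjusted p of 0.0245 and 0.0265 in limma. With slide as a block, A_73_114535, NTNG1 and SLC47A1 passed the threshold, with adjusted p of 0.00628, 0.00408 and 0.00936 in limma, as did 108 (0.758%) of all probes tested. The neighbours on chromosome 4 differed by -1.69 ± 0.43 (SE) and -1.42 ± 0.38 (SE), with adjusted p of 0.0465 and 0.0568 in limma. The lowest levels of both OOSP2 and SLC47A1 at C1 were on replicates 3 and 6, the arrays with the lowest sums of oocyte markers given above. SLC47A1 was nearly as low on C1 replicate 4 (-3.32) as on replicate 6 (-3.36). The other germ cell members did not have their lowest C1 levels on replicates 3 or 6, but C9orf11 and BRCA2 are not particular to the oocyte. The part of oocyte RNA in these differences was not tested. Among members higher in cows, SYT13 differed by 1.27 ± 0.36 (SE), PPYR1 by 1.19 ± 0.49 (SE) and CPVL by 0.87 ± 0.21 (SE), with adjusted p of 0.0724, 0.231 and 0.0409 in limma. In exact 2-sided permutation tests of single members, in which the smallest possible p is 0.00216, SLC47A1, OOSP2 and DRD2 reached this value and CPVL had a p of 0.00866.

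**Figure D5:**
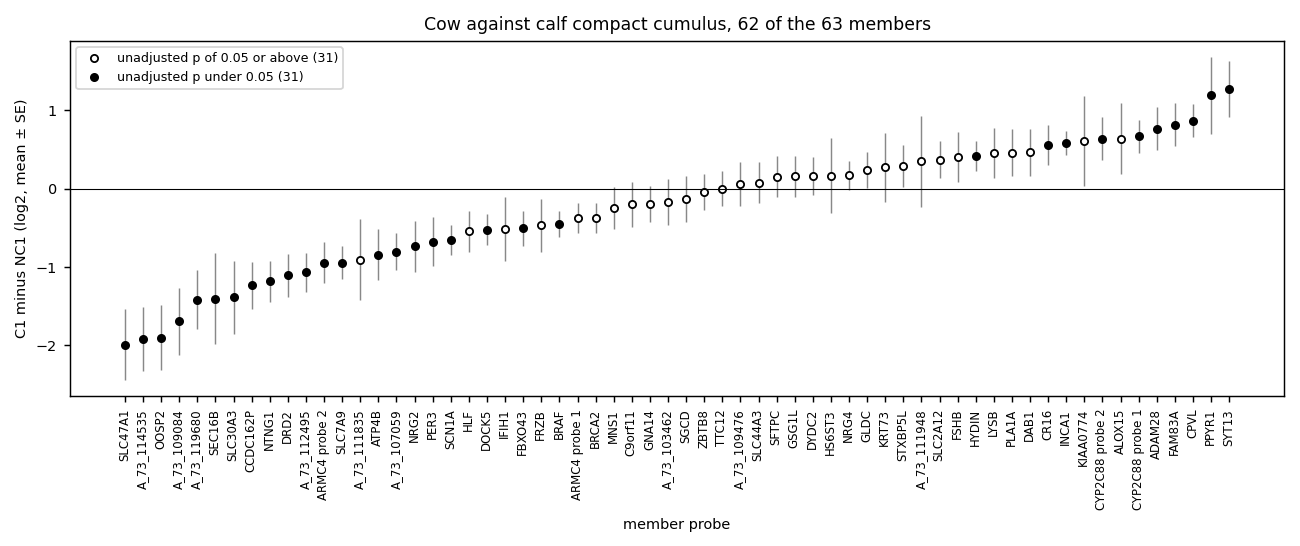
Difference of C1 from NC1 (log2, mean with SE bars) for 62 of the 63 members, in increasing order. Filled points had an unadjusted p under 0.05 (31 members) and open points did not (31). The differences run from -1.99 for SLC47A1 to 1.27 for SYT13.

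The threshold cut through a continuous range. The members with the highest C2 means were A_73_111948 at -3.51 ± 0.53 (SD, n = 5), A_73_107059 at -3.68 ± 0.49 (SD, n = 5), both without a gene name, and CCDC162P at -3.72 ± 0.46 (SD, n = 5). Just outside, among probes that 2 C2 arrays detected, H1FOO, the oocyte linker histone, had a compact mean of 1.41 and a C2 mean of -4.66. MSTN, the muscle growth inhibitor myostatin, had means of -1.09 and -4.67, and the unnamed A_73_118498 had means of -1.15 and -4.80. Among probes that 11 compact arrays and at most 1 C2 array detected, the brightest were the zona pellucida gene ZP4 (2.19 and -4.69), ACCSL (1.36 and -4.85) and the germ line factor FIGLA (-0.41 and -5.43).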

How the data were processed

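The authors deposited linear intensity values per spot from Agilent Feature Extraction 10.5.1.1, background-subtracted and detrended, and a table of log2 values scaled by each array's median. The spots of a probe were averaged as log2 processed signal, minus the array's median over probes. The members and gene lists were chosen with earlier results of these data known. The members are named by role, except 1 that is not reported here. The rule for naming took the 20 brightest named members, genes with 2 member probes, the brightest members of each gene list, the largest bounds and the probes beside the threshold. Values by array are given for most of these, means or bounds for the rest, and other members were picked after their values were seen. C1 and NC1 were compared in limma 3.58.1 (R 4.3.3) over the 14249 probes detected on 80% or more of NC1 and of C1 arrays, with Benjamini-Hochberg adjustment and a threshold of 0.01. On simulated data, 42 of 100 changes of 1 and 94 of 100 changes of 2 (log2) were recovered. The changed probes were drawn from all probes tested, and the members varied more, so the recovery among members was not measured. Current symbols were matched for 16638 probes and 49 members. Promoter motifs were not searched, as no promoter sequence was used here. Other steps used Python 3.11.15. The precision is limited by the number of arrays.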

Additional observations from a re-analysis of the deposited data

Results flagged for a closer look

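In each member, an array was picked out when its gap to the nearest array of its stage was a large part of the range of the stage (over 0.710 of it for 5 arrays, 0.625 for 6). Of 189 groups checked, 11 were picked out, 5 at C2, 5 at C1 and 1 at NC1. Chance picks out about 1 group in 20. At C2, replicate 5 was high for PPYR1 (gap of 0.838 of the range) and A_73_111948 (0.856), replicate 3 for GSG1L (0.878) and A_73_109084 (0.859), and replicate 2 for GNA14 (0.711). The rule allowed 1 C2 array to detect a member. At C1, replicate 3 was low for SLC30A3 (0.811), replicate 4 for ARMC4 probe 1 (0.681) and replicate 5 for BRAF (0.701), while replicate 6 was high for SLC2A12 (0.655) and replicate 1 for IFIH1 (0.742). At NC1, replicate 3 was high for SFTPC (0.632).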

How the results depend on the processing

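The number of members was 69 when all spots had to be well above background (41 shared with the 63) and 63 when spots also had to be uniform and not saturated. It was 26 with the softer mark (8 shared), 27 when no C2 array was allowed, 126 when 2 were, and 101 when 11 compact arrays sufficed. Leaving out 1 array, which can only raise the count, gave 63 to 104, the highest without C2 replicate 5. The members called between C1 and NC1 were 1 with normexp, 1 with array weights, 3 with slide as a block and 3 with the replicate number as a block, and 0 to 1 when 1 array was left out. The 1 call came without NC1 replicate 3 (A_73_114535) or without C1 replicate 2 (CCDC162P). Over all tested probes, 84 calls (10 higher, 74 lower) became 26 with scaling to the 75th percentile (6 and 20), 54 with quantile normalization, 45 with normexp (13 and 32), 53 with no filter, 10 with all 17 arrays in 1 fit, 216 with array weights, and 28 to 113 when 1 array was left out. Counts under 56 came without NC1 replicates 2, 4, 5 or 6 or C1 replicates 3, 4 or 5 (28, 36, 39, 35, 36, 44 and 40). Without C1 replicates 3 and 6 together, chosen after seeing the data, the count was 36. The replicate block calls OOSP2, SLC47A1 and A_73_109084 among 112 probes, but same-numbered arrays correlated between -0.30 and -0.07 in 6 of 6 pairs, so the number was not taken as a pairing. The median bound against C1 was 1.64-fold with normexp and 3.53-fold with the 5th percentile, and 10.4-fold to 12.3-fold when 1 array was left out. The causes were not tested. For single members, 10 of 1512 values passed the threshold under an alternative, and 16 members, with differences of up to 0.51 in size, changed sign under at least 1.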
